A study of Mus musculus with 12 samples.

Results

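The 10 genes described here encode enzymes of prostaglandin, thromboxane and leukotriene synthesis and receptors for prostaglandin E2 (PGE2): *Pla2g4a*, *Ptgs1*, *Ptgs2*, *Ptges*, *Ptges3*, *Hpgds*, *Tbxas1*, *Ptger2*, *Ptger4* and *Alox5*. They were chosen by gene symbol, matched to Ensembl identifiers through GENCODE M21, and are 10 of the 53379 genes in the count table. All 10 passed the filter on low counts and are among the 12386 genes tested. RNA was measured by sequencing in bone marrow-derived macrophages (BMDMs), which are macrophages grown in culture from bone marrow progenitors. The marrow came from 4 C57Bl/6J mice, which the methods describe as adult males and for which the labels name no gene deletion. The cells were differentiated for 1 week in RPMI with 10% FCS and 20% medium conditioned by L929 cells, a fibroblast line used as a source of the growth factor M-CSF. From each mouse, some cells stayed untreated and others received 1 µM fenoterol, an agonist of the β2-adrenergic receptor (B2AR), for 1 h or for 4 h without a change of medium, which gave 3 groups of 4 libraries. The untreated cells thus carried the same serum and conditioned medium, the labels name no solvent control, and both time points were compared with the same 4 untreated libraries.

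Prostaglandins are made from arachidonic acid, which phospholipase A2 enzymes free from membrane phospholipids. The cyclooxygenases COX-1 and COX-2 turn it into prostaglandin H2, and a separate synthase then makes each final product, such as PGE2, prostaglandin D2 or thromboxane A2. PGE2 acts on neighbouring cells and on the cell that made it through EP receptors, of which EP2 and EP4 raise cyclic AMP (cAMP) through the G protein Gs, the same route that B2AR uses. In macrophages COX-1 is usually present at rest, while COX-2 is known for rapid induction by inflammatory and cAMP signals, which act in part through cAMP-responsive elements (CREs) that bind the factor CREB.

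The total count per library lay between 14580533 and 24153284. The 7 macrophage markers, including *Adgre1*, *Csf1r* and *Mertk*, were all tested and summed to 735300 to 773700 normalized counts in untreated libraries, 661000 to 781900 at 1 h and 626400 to 716800 at 4 h. Most of each sum was *Lyz2* (means 489100, 469800 and 430400). At 4 h 2 markers were higher and 4 lower than in untreated cells, where 40.0% of all genes tested passed. From untreated to 4 h the mean of *Mertk* went from 3860 to 1353, that of *Itgam* from 9118 to 12220 and that of *Fcgr1* from 5393 to 8880. The 6 mast cell and basophil markers summed to no more than 19.5 normalized counts in any library, with *Mcpt4* and *Tpsb2* at 0 throughout, and the 5 T and B cell markers to no more than 6.26. Fewer cells of a type and less RNA per cell cannot be told apart in these bulk libraries.

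The start-site regions of 3 of the genes are shown first, because *Ptgs2* had the largest change of the 10 genes at 1 h, *Ptgs1* encodes the other cyclooxygenase, and *Ptges3* was the only other gene of the 10 whose region held the same CREB motif. All 10 genes were matched in the RefSeq promoter table for GRCm38.p6, which holds 250 bases before and 50 bases after each start, with 11 windows for the 10 genes. The regions are chr1:150099781-150100080 for *Ptgs2*, chr2:36230176-36230475 for *Ptgs1* and chr10:128058732-128059031 for *Ptges3*, each on the plus strand of GRCm38.p6 and written 5′ to 3′. Capitals mark the CRE half-site TGACG, which lies on the minus strand in both cases and is therefore read as its reverse complement.
Ptgs2: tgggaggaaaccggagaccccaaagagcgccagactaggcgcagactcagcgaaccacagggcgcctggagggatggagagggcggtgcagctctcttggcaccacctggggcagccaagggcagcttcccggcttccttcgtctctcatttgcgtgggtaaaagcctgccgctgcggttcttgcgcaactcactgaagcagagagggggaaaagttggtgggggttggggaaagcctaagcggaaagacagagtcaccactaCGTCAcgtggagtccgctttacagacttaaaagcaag
Ptgs1: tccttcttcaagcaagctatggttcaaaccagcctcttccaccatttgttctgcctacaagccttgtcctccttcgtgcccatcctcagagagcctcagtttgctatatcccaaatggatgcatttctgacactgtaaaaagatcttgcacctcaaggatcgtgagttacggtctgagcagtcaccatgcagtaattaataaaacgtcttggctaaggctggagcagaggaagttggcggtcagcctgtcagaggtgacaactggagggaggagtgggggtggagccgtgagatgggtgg
Ptges3: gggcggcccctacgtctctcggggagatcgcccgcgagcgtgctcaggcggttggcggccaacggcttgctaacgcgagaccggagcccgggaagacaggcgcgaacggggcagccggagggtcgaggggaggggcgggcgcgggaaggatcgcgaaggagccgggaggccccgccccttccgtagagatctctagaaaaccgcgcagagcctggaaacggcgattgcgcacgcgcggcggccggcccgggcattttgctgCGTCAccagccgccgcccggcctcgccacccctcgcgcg

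The half-site TGACG was searched on both strands. It covered bases 14 to 18 after the annotated start in *Ptgs2* and bases 12 to 16 after the annotated start in *Ptges3*, counted from 1 at that start. The start is the one in the annotation and was not mapped in these cells. The motif may therefore lie before the start that the cells use. Of the 32851 promoters in the table, 20.8% held it at least once. The full CRE, TGACGTCA, which contains the half-site, was in 1.79% of all promoters and in none of the 11 windows. The motif is a match of letters only. Of the 2 genes that held it, *Ptgs2* was called at 1 h and *Ptges3* was not.

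At 1 h of fenoterol, COX-2 RNA was 157-fold higher while RNA of the PGE2 receptors EP2 and EP4 was lower. At 4 h RNA of EP4, of the synthases for prostaglandin D2 and thromboxane, of COX-1 and of 5-lipoxygenase was lower than in untreated cells. In numbers, 3 of the 10 genes had an adjusted p under 0.05 at 1 h (edgeR's quasi-likelihood test, Benjamini-Hochberg adjustment). *Ptgs2* was higher, and *Ptger2* and *Ptger4* were lower. Of all genes tested, 20.1% passed at 1 h, 10.0% higher and 10.1% lower. With the mouse as a block, which pairs libraries of the same animal, 5 of the 10 passed at 1 h, against 27.0% of all genes. At 4 h 7 of the 10 genes passed, *Ptgs2* and *Ptges* as higher and *Ptgs1*, *Hpgds*, *Tbxas1*, *Ptger4* and *Alox5* as lower. The background at 4 h was 40.0% of all genes tested, 19.7% higher and 20.4% lower. Between 1 h and 4 h, 7 of the 10 genes differed, *Ptges* and *Ptger2* as higher at 4 h and *Ptgs1*, *Ptgs2*, *Hpgds*, *Tbxas1* and *Alox5* as lower, against 38.5% of all genes, 18.7% higher and 19.8% lower. With the mouse as a block, 8 of the 10 passed at 4 h, against 47.4% of all genes. The block also gave 8 of the 10 between the times, against 46.6%. The median log2 fold change of the 10 genes was 0.0012 at 1 h and -0.47 at 4 h, and that of all genes tested was -0.0049 and 0.0042. With so few genes and these backgrounds, the counts say little about the set as such, and the values of the single genes follow.

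**Figure D1:**
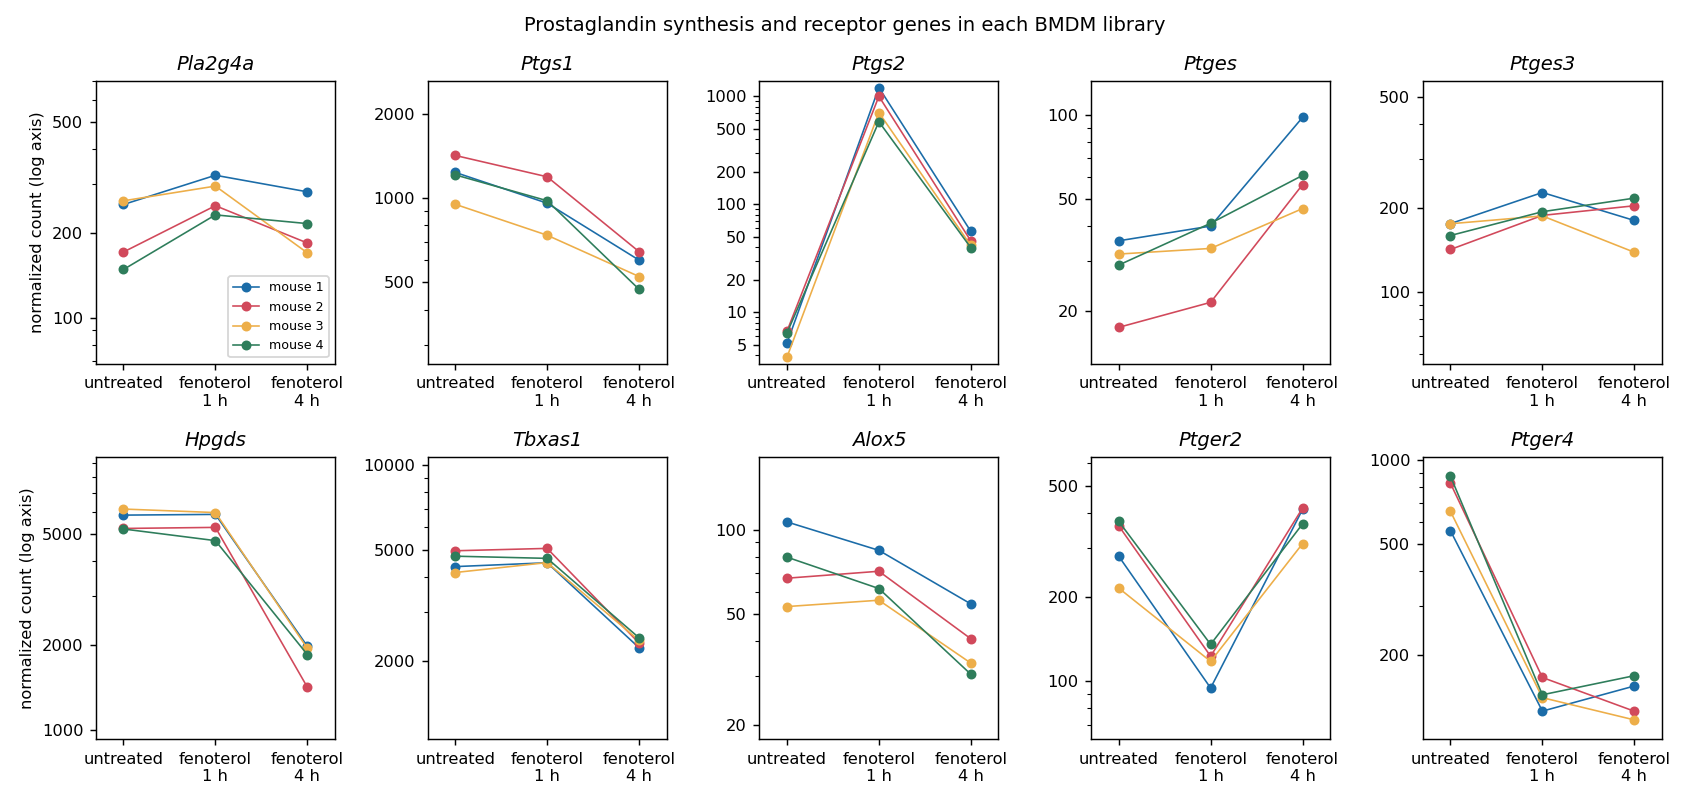
Normalized counts (log axis, with its own range in each panel) of the 10 genes in untreated BMDMs and after 1 h or 4 h of fenoterol, with 1 point per library and lines joining libraries of the same mouse. *Ptgs2* peaked at 1 h in all 4 mice (583 to 1205 normalized counts), *Ptger2* was lowest at 1 h (94.6 to 135), and *Hpgds* and *Tbxas1* fell between 1 h and 4 h in all 4 mice.

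**Figure D2:**
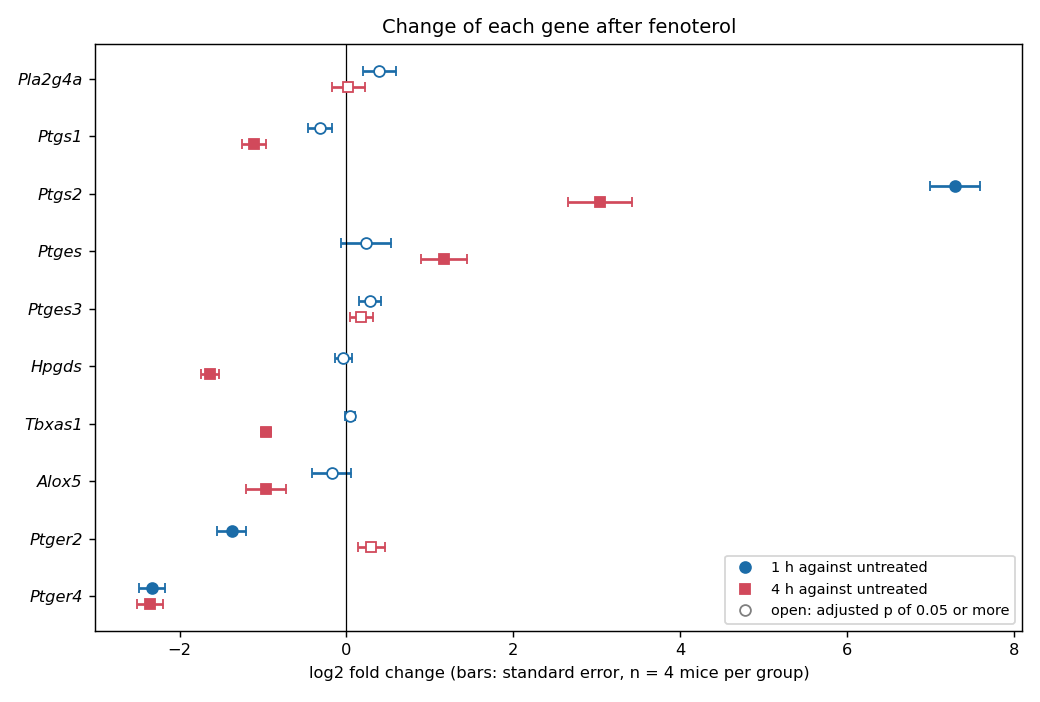
Log2 fold change of each of the 10 genes at 1 h (circles) and 4 h (squares) of fenoterol against untreated BMDMs. Bars show the standard error derived from edgeR's test, and open symbols an adjusted p of 0.05 or more in the fit without pairing by mouse. *Ptgs2* lies far to the right at both times (7.29 and 3.04), *Ptger4* lies at about the same place at both (-2.33 and -2.35), and *Ptger2* is called at 1 h (-1.38) but not at 4 h (0.30).

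*Pla2g4a* (ENSMUSG00000056220, chromosome 1, 149829618 to 149961290, minus strand) encodes cytosolic phospholipase A2, which frees arachidonic acid for the whole pathway. It had 149 to 262 normalized counts in untreated libraries, 233 to 323 at 1 h and 170 to 282 at 4 h, where normalized counts are counts scaled by the TMM method to the mean library size. The 3 ranges overlapped. The log2 difference from untreated cells was 0.39 at 1 h (95% interval -0.03 to 0.81, adjusted p = 0.198) and 0.02 at 4 h (95% interval -0.40 to 0.44, adjusted p = 0.947). All 4 mice were higher at 1 h than untreated, and when the mouse was entered as a block the difference at 1 h passed the threshold (0.40, adjusted p = 0.0314, range over all alternatives 0.0314 to 0.414). The block also brought the difference between 4 h and 1 h past it (log2 -0.37, adjusted p = 0.0305 against 0.155 without the block, range over all alternatives 0.0305 to 0.337). At 4 h against untreated cells, the sign of the difference turned when single libraries were left out (-0.14 to 0.14).

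*Ptgs2* (ENSMUSG00000032487, chromosome 1, 150100031 to 150108227, plus strand) encodes COX-2, the inducible cyclooxygenase. The untreated libraries of mice 1 to 4 held 6, 5, 4 and 6 reads, those at 1 h held 1172, 889, 722 and 568, and those at 4 h held 54, 44, 45 and 51. The 3 groups did not overlap, and every 4 h library lay between the untreated and the 1 h libraries of all mice. Mouse by mouse, the log2 change at 1 h ranged from 6.39 to 7.73 and that at 4 h from 2.53 to 3.32. The fitted log2 fold change was 7.29 at 1 h (standard error 0.30, adjusted p = 1.73e-10), or 157-fold with a 95% interval of 6.65 to 7.94 on the log2 scale. At 4 h it was 3.04 (standard error 0.38, adjusted p = 1.5e-05, 8.22-fold), and the 4 h libraries were 19.1-fold below those at 1 h (log2 -4.26, adjusted p = 2.99e-09). Among the 12386 genes tested, *Ptgs2* stood 58th by p at 1 h and 1157th at 4 h. The size of both rises rests on the 4 to 6 reads of the untreated libraries, and over all alternatives the log2 value lay between 6.64 and 7.45 at 1 h and between 2.52 and 3.12 at 4 h.

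*Ptgs1* (ENSMUSG00000047250, chromosome 2, 36230426 to 36252272, plus strand) encodes COX-1, the constitutive cyclooxygenase. In mice 1 to 4 it had 1237, 1422, 951 and 1212 normalized counts untreated, 960, 1193, 738 and 980 at 1 h, and 601, 644, 525 and 473 at 4 h. Every 4 h library was below every library of the other 2 groups, while the untreated and 1 h libraries overlapped. *Ptgs1* fell at 4 h by 1.11 on the log2 scale (standard error 0.15, adjusted p = 2.41e-05, 2.15-fold), and it was also lower at 4 h than at 1 h (log2 -0.79, adjusted p = 0.000619). At 1 h the log2 difference from untreated cells was -0.32 (95% interval -0.62 to -0.01, adjusted p = 0.146). It was between -0.37 and -0.25 in each of the 4 mice, and it passed the threshold with the mouse as a block (-0.32, adjusted p = 0.00319, range over all alternatives 0.00319 to 0.373).

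The balance of the cyclooxygenases was compared per length, as RPKM, which divides each count by the length of the gene's exons and by the scaled library size. In untreated cells *Ptgs1* stood at 15.8 ± 2.54 RPKM and *Ptgs2* at 0.0618 ± 0.0146 (SD, n = 4), so that the ratio of *Ptgs2* to *Ptgs1* was 0.00344 to 0.00452. At 1 h the levels were 12.7 ± 2.44 RPKM for *Ptgs1* and 9.73 ± 3.13 for *Ptgs2*, and the ratio in mice 1 to 4 was 1.06, 0.712, 0.814 and 0.504. The level of COX-2 RNA thus came within the range of COX-1 RNA at 1 h, and exceeded it within a library in mouse 1 only. At 4 h, with 7.36 ± 1.01 and 0.511 ± 0.0823 RPKM, the ratio was 0.0605 to 0.0795, above every untreated ratio and below every ratio at 1 h. With the length of the longest transcript in place of the union of exons, the ratio at 1 h was 0.383 to 0.808.

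**Figure D3:**
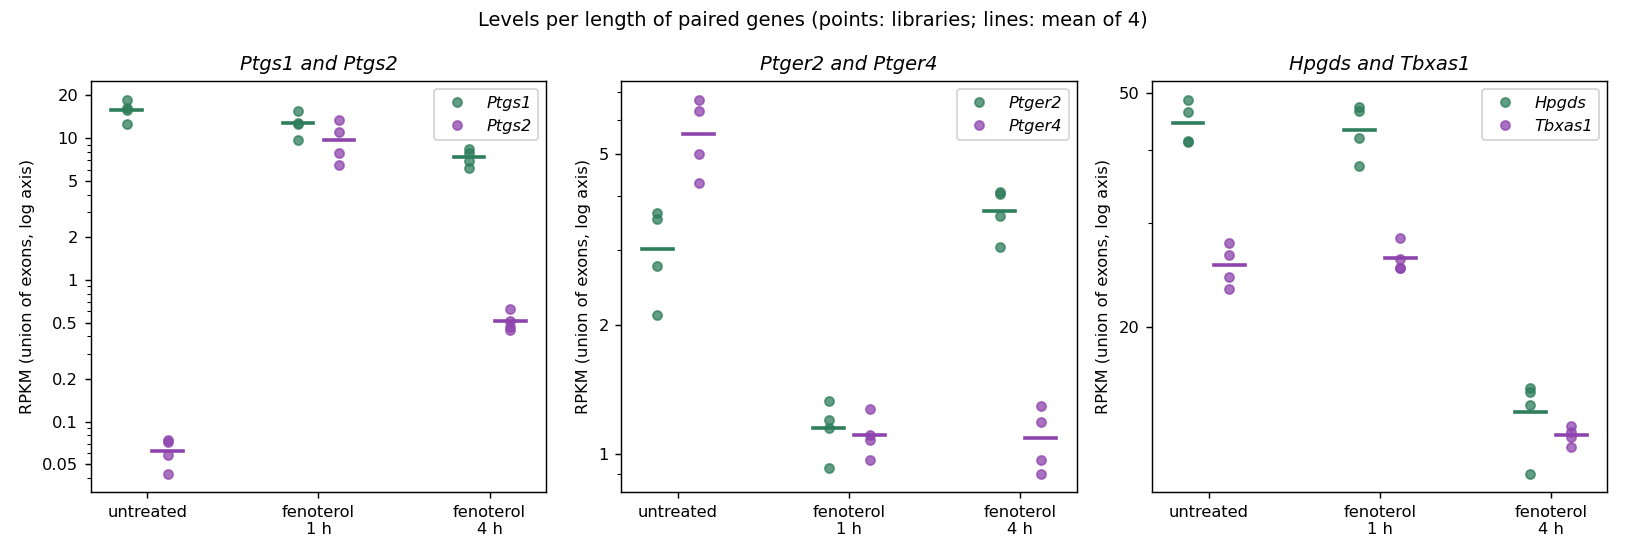
Levels in RPKM (log axis) of *Ptgs1* and *Ptgs2*, of *Ptger2* and *Ptger4*, and of *Hpgds* and *Tbxas1* in the 3 groups, with 1 point per library and a line at the mean of 4. The cyclooxygenases overlap at 1 h only, *Ptger4* lies above *Ptger2* in untreated cells and below it at 4 h, and *Hpgds* comes down to the level of *Tbxas1* at 4 h.

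Of the 2 PGE2 synthases listed, *Ptges* rose at 4 h and *Ptges3* passed the threshold in no comparison. *Ptges* (ENSMUSG00000050737, chromosome 2, 30889471 to 30929863, minus strand) encodes microsomal PGE synthase-1, the inducible enzyme that is known to work with COX-2. It had 35.5, 17.4, 31.8 and 29.1 normalized counts in untreated libraries of mice 1 to 4, 40.1, 21.4, 33.4 and 41.0 at 1 h, and 98.0, 56.4, 46.3 and 60.8 at 4 h. Every 4 h library was above all others, with mouse 1 well above the other 3, and the untreated and 1 h libraries overlapped. The log2 fold change was 1.17 at 4 h (standard error 0.28, adjusted p = 0.00388, 2.25-fold) and 0.24 at 1 h (95% interval -0.40 to 0.87, adjusted p = 0.666). *Ptges* was higher at 4 h than at 1 h by 0.93 (adjusted p = 0.0153), but without the 4 h library of mouse 1 this difference was 0.68 with an adjusted p of 0.0588 (range over all alternatives 0.00139 to 0.0588). These are low counts, 13 to 94 reads per library.

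*Ptges3* (ENSMUSG00000071072, chromosome 10, 128058954 to 128077272, plus strand) encodes cytosolic PGE synthase, a protein better known as p23, a co-chaperone of HSP90. It had 142 to 176 normalized counts untreated, 187 to 227 at 1 h and 139 to 217 at 4 h. The 1 h libraries were all above the untreated ones, with a log2 difference of 0.28 (95% interval -0.01 to 0.58, adjusted p = 0.183), and the 4 h libraries overlapped both groups (log2 0.18 against untreated, 95% interval -0.12 to 0.47, adjusted p = 0.335). Of the 2215 stretches of 50 bases in its exons, the length of a read, 434 (19.6%) were identical to another gene, mainly the processed pseudogene *Ptges3-ps* and in part *Gm11893*. How the counting treated reads that match several genes is not given in the sources used here. Reads from these stretches may be missing from the count, so the level of *Ptges3* may be too low. Its ratio to *Ptges* and its place among the 10 genes carry the same limit. *Ptges3-ps* itself held 49 reads over all libraries against 2203 for *Ptges3*. Per length, the ratio of *Ptges* to *Ptges3* in RPKM was 0.0692 to 0.114 in untreated cells, 0.0642 to 0.119 at 1 h and 0.156 to 0.306 at 4 h. The 4 h ratios thus lay above all others.

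*Hpgds* and *Tbxas1* had the highest levels per length of the 10 genes in all 3 groups, and both fell between 1 h and 4 h. *Hpgds* (ENSMUSG00000029919, chromosome 6, 65117293 to 65144908, minus strand) encodes hematopoietic prostaglandin D synthase, which makes prostaglandin D2 in macrophages, mast cells and some T cells. Its normalized counts in mice 1 to 4 were 5839, 5232, 6138 and 5209 untreated, 5874, 5278, 5963 and 4733 at 1 h, and 1986, 1418, 1952 and 1854 at 4 h. The untreated and 1 h groups overlapped, and each 4 h library held less than any other library did. *Hpgds* fell at 4 h by 1.64 on the log2 scale (standard error 0.11, adjusted p = 1.55e-08, 3.11-fold), while at 1 h the difference was -0.04 (95% interval -0.26 to 0.18, adjusted p = 0.858). Against 1 h, the value at 4 h was -1.60 (adjusted p = 3.1e-08). Mast cells are another source of this enzyme. Of their 6 markers 1 had enough reads to be tested, *Kit*, with 8.28 normalized counts untreated, 11.5 at 1 h and 3.60 at 4 h (means of 4 libraries). *Kit* was lower at 4 h than at 1 h but did not pass the threshold against untreated cells at 1 h or 4 h. *Mcpt4* and *Tpsb2* were at 0 in all libraries. The part of these markers in the fall of *Hpgds* was not tested.

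*Tbxas1* (ENSMUSG00000029925, chromosome 6, 38875404 to 39084585, plus strand) encodes thromboxane A synthase. It had 4344, 4949, 4138 and 4733 normalized counts in untreated libraries of mice 1 to 4, 4484, 5046, 4490 and 4649 at 1 h, and 2228, 2315, 2365 and 2418 at 4 h. All 4 h libraries were near 1 level, well below the rest, and the other 2 groups overlapped. *Tbxas1* fell at 4 h by 0.96 on the log2 scale (standard error 0.06, adjusted p = 1.7e-08, 1.95-fold) and the value against 1 h was -1.001 (adjusted p = 1.8e-08). At 1 h the difference was 0.04 (95% interval -0.09 to 0.17, adjusted p = 0.737), and its sign turned (-0.03) when libraries were scaled by their size only. Platelets are rich in thromboxane synthase and COX-1. The 6 platelet markers summed to 273 to 344 normalized counts untreated, 226 to 367 at 1 h and 250 to 306 at 4 h, with *Gp6* at 0 in all groups, *Ppbp* higher at 4 h and *Treml1* lower, and their part in the falls of *Tbxas1* and *Ptgs1* was not tested.

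The levels of the 2 enzymes came closer together at 4 h. In untreated cells *Hpgds* stood at 44.5 ± 3.65 RPKM and *Tbxas1* at 25.5 ± 2.06, and at 4 h at 14.3 ± 2.08 and 13.1 ± 0.454 RPKM (SD, n = 4). The ratio of *Hpgds* to *Tbxas1* in RPKM was 1.496 to 2.10 in untreated cells, 1.44 to 1.88 at 1 h and 0.867 to 1.26 at 4 h. It was lower at 4 h than in either other group, without overlap, and mouse 2 had the lowest ratio at 4 h.

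The receptor genes *Ptger2* and *Ptger4* both fell at 1 h, and at 4 h *Ptger4* was still lower than in untreated cells while the *Ptger2* libraries overlapped the untreated ones. *Ptger2* (ENSMUSG00000037759, chromosome 14, 44988195 to 45003820, plus strand) encodes EP2. Its normalized counts in mice 1 to 4 were 280, 359, 215 and 373 untreated, 94.6, 123, 118 and 135 at 1 h, and 411, 416, 310 and 365 at 4 h. The 1 h libraries were below all others, and the 4 h libraries overlapped the untreated ones, with mice 1 and 2 above the highest untreated library. *Ptger2* fell at 1 h by 1.38 on the log2 scale (standard error 0.17, adjusted p = 3.55e-05, 2.60-fold) and was 3.19-fold higher at 4 h than at 1 h (log2 1.67, adjusted p = 3.08e-06). At 4 h the log2 difference from untreated cells was 0.30 (95% interval -0.05 to 0.64, adjusted p = 0.168). With the mouse as a block it was 0.31 and passed the threshold (adjusted p = 0.0327, range over all alternatives 0.0327 to 0.462).

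*Ptger4* (ENSMUSG00000039942, chromosome 15, 5206661 to 5244187, minus strand) encodes EP4. It had 558, 824, 654 and 873 normalized counts in the untreated libraries of mice 1 to 4, 126, 167, 141 and 145 at 1 h, and 155, 126, 118 and 169 at 4 h. The treated libraries lay in 1 narrow band at both times, far below every untreated library. The fall at 1 h was 5.02-fold (log2 -2.33, standard error 0.16, adjusted p = 4.08e-08) and that at 4 h 5.09-fold (log2 -2.35, standard error 0.16, adjusted p = 2.05e-08). Between the 2 times the log2 difference was -0.02 (95% interval -0.37 to 0.33, adjusted p = 0.938), with a sign that turned under scaling by library size only (0.07). The processed pseudogene *Gm15937*, on the opposite strand, covers 15.3% of the exon bases of *Ptger4* and held 6 reads over all libraries, and *Ttc33*, also on the opposite strand, covers 1.23% of them and held 7064. Since the strand setting of the counting is not given in the sources used here, reads from these short overlaps cannot be assigned with certainty. The same holds for *Gm17173* and *Gm49364*, opposite to 4.74% and 2.77% of the exon bases of *Ptger2*, for *Gm43621* with 3.81% of *Ptgs1* and for *Gm42962* with 1.58% of *Tbxas1*, none of which held more than 11 reads over all libraries.

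Per length, the order of the receptors turned over between untreated cells and 4 h. In untreated cells *Ptger4* stood at 5.58 ± 1.13 RPKM and *Ptger2* at 3.01 ± 0.722, and the ratio of *Ptger4* to *Ptger2* was 1.56 to 2.38. At 1 h the ratio in RPKM was 0.834 to 1.06, or 1.04 to 1.33 with the longest transcript as length, so the order at 1 h depends on the gene model. At 4 h *Ptger4* stood at 1.09 ± 0.186 RPKM and *Ptger2* at 3.69 ± 0.482 (SD, n = 4), with a ratio of 0.238 to 0.362, below every ratio at 1 h.

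*Alox5* (ENSMUSG00000025701, chromosome 6, 116410077 to 116461178, minus strand) encodes 5-lipoxygenase, which takes arachidonic acid into leukotrienes in place of prostaglandins. It had 53.1 to 107 normalized counts in untreated libraries, 55.9 to 84.3 at 1 h and 30.4 to 54.2 at 4 h. The 4 h group overlapped the untreated group slightly, though all 4 mice were lower at 4 h than untreated. *Alox5* fell at 4 h by 0.97 on the log2 scale (standard error 0.24, adjusted p = 0.00518, 1.95-fold), and at 1 h the difference was -0.18 (95% interval -0.67 to 0.32, adjusted p = 0.686). The difference between 4 h and 1 h (log2 -0.79, adjusted p = 0.0193) did not pass the threshold without the 1 h library of mouse 1 (-0.67, adjusted p = 0.0611), without the 4 h library of mouse 3 (-0.72, adjusted p = 0.0556) or without that of mouse 4 (-0.67, adjusted p = 0.0591), where the range over all alternatives was 0.000992 to 0.0611. Neutrophils are rich in this enzyme. The 7 neutrophil markers summed to 588 to 1189 normalized counts untreated, 609 to 1094 at 1 h and 575 to 988 at 4 h, none of the 5 tested passed the threshold, and their part in the fall of *Alox5* was not tested.

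The levels per length also show how the order of the genes changed. In untreated BMDMs the mean RPKM ran from *Hpgds* (44.5), *Tbxas1* (25.5) and *Ptgs1* (15.8) through *Ptger4* (5.58), *Ptges3* (3.75), *Ptger2* (3.01) and *Pla2g4a* (1.67) to *Alox5* (0.951), *Ptges* (0.369) and *Ptgs2* (0.0618). Neighbours in that order did not overlap in RPKM, apart from *Ptges3* with *Ptger2* and *Pla2g4a* with *Alox5*. At 1 h *Ptgs2*, at 9.73 RPKM, stood next below *Ptgs1*, with which it overlapped. At 4 h the order in RPKM was *Hpgds* (14.3), *Tbxas1* (13.1), *Ptgs1* (7.36), *Ptges3* (4.25), *Ptger2* (3.69), *Pla2g4a* (1.70), *Ptger4* (1.09), *Ptges* (0.848), *Ptgs2* (0.511) and *Alox5* (0.493). There *Hpgds* overlapped *Tbxas1*, *Ptges3* overlapped *Ptger2*, and each of the last 4 genes overlapped its neighbour. Both orders and overlaps are for the union of exons as length. With the longest transcript, *Ptger2* stood above *Ptges3* in mean RPKM in untreated cells (4.24 and 4.16) and at 4 h (5.19 and 4.71), and at 4 h *Tbxas1* stood above *Hpgds* (26.1 and 23.6) and *Alox5* above *Ptgs2* (0.566 and 0.526).

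The wider eicosanoid pathway was covered by 72 further genes in 6 lists, of which 45 had enough reads to be tested. At 1 h 5 of the 45 passed the threshold, 3 higher and 2 lower, and at 4 h 18 passed, 7 higher and 11 lower, with a median log2 fold change over the 45 of 0.0072 at 4 h. Between 1 h and 4 h 15 of the 45 differed, 5 higher and 10 lower at 4 h. These are 11.1% of the 45 genes at 1 h, 40.0% at 4 h and 33.3% between the times, where all genes tested gave 20.1%, 40.0% and 38.5%. The count at 1 h moved with the fit. It was 3 to 5 when single libraries were left out, with 3 without untreated mouse 2 or 4 or without the 1 h library of mouse 2 or 4. With the mouse as a block it was 8, or 17.8% against 27.0% of all genes, and the genes gained, named after their values were seen, were *Daglb* (log2 -0.17, adjusted p = 0.0449), *Lpcat2* (0.17, adjusted p = 0.0236) and *Ptgir* (0.38, adjusted p = 0.00225). The block gave 24 calls at 4 h (53.3% against 47.4% of all genes) and 21 between the times (46.7% against 46.6%). At 4 h it lost none of the 18 genes and added *Fads2* (0.55, adjusted p = 5.06e-05), *Ptgr1* (adjusted p = 0.0247), *Pla2g7* (adjusted p = 0.0113), *Dpep2* (adjusted p = 0.0112), *Zadh2* and *Cyp4f18*, of which *Fads2*, *Ptgr1* and *Pla2g7* were named after their values were seen.

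The gene of this group with the smallest adjusted p at 4 h was *Hpgd*, which encodes 15-hydroxyprostaglandin dehydrogenase, the enzyme that inactivates PGE2 and other prostaglandins, and should not be confused with the synthase gene *Hpgds*. It had 1507 ± 98.2 normalized counts in untreated libraries, 877 ± 101 at 1 h and 124 ± 10.6 at 4 h (SD, n = 4). The 3 groups did not overlap, and all 4 mice were lower at both times. *Hpgd* fell by 0.78 on the log2 scale at 1 h (adjusted p = 4.34e-06) and by 3.60 at 4 h (standard error 0.09, adjusted p = 3.98e-12, 12.1-fold). Of the 6 transport and inactivation genes tested, 3 passed at 4 h. The others were *Abcc4*, the exporter MRP4, which rose (0.48, adjusted p = 0.000149), and *Ptgr2*, a prostaglandin reductase, which was lower (-0.36, adjusted p = 0.000452), and the uptake transporter gene *Slco2a1* had too few reads to be tested. The reductase genes *Cbr3* (log2 -0.21 at 4 h, adjusted p = 0.182) and *Zadh2* (0.15, adjusted p = 0.0504) did not pass, though *Zadh2* did with the mouse as a block (adjusted p = 0.0282).

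Among the 17 genes of arachidonate release and recycling that were tested, 3 were higher and 4 lower at 4 h. *Pla2g15*, the lysosomal phospholipase A2, fell at both times (log2 -0.36 at 1 h, adjusted p = 0.000233, and -1.24 at 4 h, adjusted p = 3.58e-10). *Daglb* (-1.09, adjusted p = 3.32e-09), a diacylglycerol lipase, and *Abhd12* (-0.74, adjusted p = 2.09e-07), a lipase of lysophospholipids and monoacylglycerol, fell at 4 h. *Acsl4*, the acyl-CoA synthetase that prefers arachidonic acid, rose at 4 h (log2 0.68, adjusted p = 3.52e-06). Its smaller rise at 1 h (0.26, adjusted p = 0.0198) lost its call without untreated mouse 2 or 4, without the 1 h library of mouse 1 or 2, and with library size as the only scaling (highest adjusted p 0.0717). The remaining calls at 4 h, named here after their values were seen, were *Lpcat2* (0.79) and *Lpcat3* (0.25), which put fatty acids back into phospholipids, as higher, and *Mgll* (-1.25), monoacylglycerol lipase, as lower. At 1 h the 3 calls of this list were *Pla2g15*, *Acsl4* and *Dagla* (0.41, adjusted p = 0.0415), also named after its value was seen.

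None of the 5 other prostanoid synthases tested, *Ptges2*, *Cbr1*, *Cbr2*, *Akr1b3* and *Fam213b*, passed the threshold at any time, with log2 differences from -0.15 to 0.15 at 4 h. The genes for the other prostaglandin D synthase (*Ptgds*) and for prostacyclin synthase (*Ptgis*) had at most 2 and 6 reads in a library. Of 7 other prostanoid receptors, only *Ptgir*, the prostacyclin receptor, which also signals through Gs, was tested. It rose at 4 h from 271 ± 48.5 to 402 ± 60.5 normalized counts (log2 0.57, standard error 0.15, adjusted p = 0.00766, higher in 4 of 4 mice), and at 1 h the difference was 0.37 and passed only with the mouse as a block, as given above. The genes for EP1 and EP3 had at most 9 and 21 reads in a library, that for the thromboxane receptor at most 1, and those for the receptors of prostaglandins D2 and F had 0 reads in all libraries.

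Of the 10 other leukotriene pathway genes tested, 2 were higher and 3 lower at 4 h. *Alox5ap*, which encodes FLAP, the partner that presents arachidonic acid to 5-lipoxygenase, had the highest level per length among them, 413 ± 16.8 RPKM untreated, and rose slightly at 4 h (log2 0.26, adjusted p = 0.000463). *Alox5* itself stood at 0.951 ± 0.282 RPKM untreated (SD, n = 4) and fell at 4 h, as given above. *Ggt5* (-1.04, adjusted p = 0.00229), a gamma-glutamyl transferase of leukotriene C4, and *Mgst3* (-0.39, adjusted p = 0.00587), a microsomal glutathione transferase, were lower at 4 h, and *Dpep2*, a dipeptidase of leukotriene D4, was higher at 1 h (0.40, adjusted p = 0.0303), a call that was lost without untreated mouse 3 or 4, without the 1 h library of mouse 2 or 4, and with library size as the only scaling (highest adjusted p 0.0884). The other calls at 4 h, named after their values were seen, were *Ltb4r1*, the leukotriene B4 receptor, at 8 to 27 normalized counts (log2 1.00, adjusted p = 0.034), and *Ltc4s*, leukotriene C4 synthase (-0.49, adjusted p = 0.0394). For *Ltc4s* the 4 h and untreated groups overlapped, and the change of single mice ran from -0.90 to 0.008, lower in 3 mice and higher in 1. The last list holds cytochrome P450 genes that act on arachidonic acid and its products, among them epoxygenases (*Cyp2j*) and hydroxylases (*Cyp4f*), and epoxide hydrolases. Of its 6 genes tested, *Cyp4f16* (-0.56, adjusted p = 0.000126) and *Ephx1*, epoxide hydrolase 1 (-0.87, adjusted p = 0.000755), were lower at 4 h, *Cyp4f18* (-0.93, adjusted p = 0.127, or 9.69e-05 with the mouse as a block) and *Cyp4f13* (-0.09, adjusted p = 0.366) did not pass, and none passed at 1 h.

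**Figure D4:**
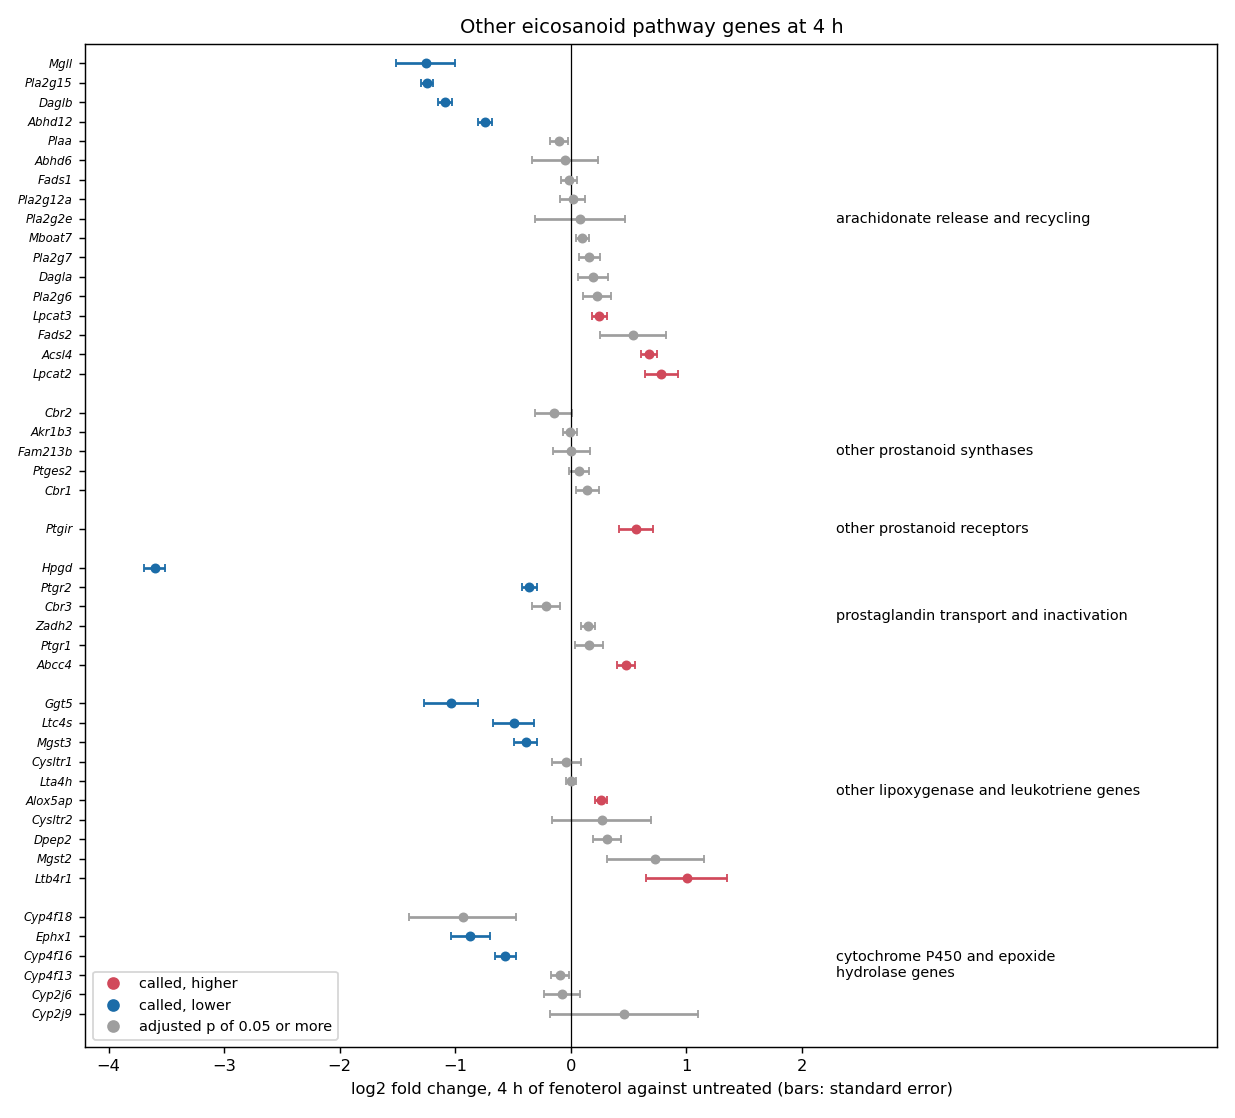
Log2 fold change at 4 h of fenoterol against untreated BMDMs for the 45 other eicosanoid pathway genes tested, grouped by list. Bars show the standard error derived from edgeR's test. Of these genes, 7 were called higher (red), 11 lower (blue) and the rest did not pass an adjusted p of 0.05 (grey), and *Hpgd* lies farthest from 0 at -3.60.

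The genes most like each changed gene over the 12 libraries were found by Pearson's r of log2 normalized counts, among 10290 genes with a mean of at least 50. These values describe the pattern over 3 groups that all points share. For *Ptgs2* they were *Osm* (r = 0.996), *Slc25a33* and *Midn* (both 0.992), and for *Ptgs1* they were *Pstpip2* (0.988), *Eef2k* (0.987) and *Ighm* (0.978). *Hpgds* was most like *Slamf7* (r = 0.995), *Sirpa* and *Fmnl3* (both 0.994), and *Tbxas1* most like *Fyb*, *Adcy9* and *Frmd6* (all 0.994), where *Adcy9* encodes an adenylyl cyclase, an enzyme that makes cAMP. *Ptger2*, with its dip at 1 h, was most like *Card6* (0.969), *4933427D14Rik* (0.967) and *Arhgap23* (0.962). *Ptger4* was most like *Ikzf1* (0.979), *Ppp1r21* (0.979) and *Etv3* (0.978), and *Ptges* most like *Anxa2* (0.954), *Tgds* (0.952) and *S100a11* (0.941).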

How the data were processed

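Stranded mRNA libraries were read as single ends of 50 bases. The authors aligned these reads to GRCm38 with TopHat2 2.0.11 and summed them over genes with HTSeq 0.8.0, according to the submitters' processing notes and the methods, and deposited the raw, unscaled counts. The annotation release and strand option of the counting are not given in the sources used here. Of 53379 genes, 53274 were matched to GENCODE M21, and the other 105 hold 0.00461% of the counts. The study tested vsn-normalized values with limma. Here the counts were tested with edgeR 4.0.16 in R 4.3.3 (filterByExpr, TMM scaling, quasi-likelihood test, 1 fit over 12 libraries with a mean per group), with Benjamini-Hochberg adjustment over 12386 genes per contrast and a threshold of 0.05. TMM factors were 1.00 to 1.02 in untreated libraries, 0.953 to 0.974 at 1 h and 1.02 to 1.04 at 4 h.

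RPKM was computed from the deposited counts with the union of GENCODE exons as length. Per-mouse changes used a pseudocount of 0.5. The genes, the lists and the tests were chosen with earlier results of these data known. Named were all 10 genes, up to 4 genes per list with the smallest adjusted p at 1 h or 4 h and a mean normalized count of at least 20, the gene with the highest level per length in each list, the 3 genes most like each gene that changed 2-fold or more, and genes whose exons overlap 1 of the 10 or that share sequence with *Ptges3*. Of the 50-base stretches of *Hpgds* and *Tbxas1*, 0.409% and 1.70% were identical to other genes, which are not named singly. Cell type markers were fixed as lists; those of eosinophils, stromal cells and dendritic cells summed to 0 to 24.7, 433 to 1331 and 5.56 to 25.9 normalized counts, with no call in any contrast. *Fam213b* is the older symbol of *Prxl2b*, and *Dpep2* names 2 Ensembl genes, of which the one with 4383 reads was used.

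The labels tie libraries with a shared number to 1 mouse. Their deviations from the group means had r from 0.290 to 0.561 (12 pairs), against -0.304 to 0.0912 for different mice (36 pairs), so the numbers pair the libraries. A fit with the mouse as a block was an alternative. The main fit, with its calls, standard errors and intervals, does not use this pairing. Other alternatives were DESeq2 1.42.0, limma-voom and limma-trend (limma 3.58.1), RLE normalization, library size only, no filter, a mean count of at least 50, only the 2 groups compared, an adjusted p under 0.01, longest transcripts as length, and each of 12 libraries left out. The edgeR test was tested on simulated counts: of 200 changed genes among 12113 at 1 h it called 179 (83 of 2-fold and 96 of 4-fold), with 7 false calls, and 0 genes in an unchanged contrast. These counts were drawn from edgeR's own model with no effect of the mouse. They therefore cannot show how the test behaves on libraries paired by mouse. Figures were drawn with matplotlib 3.10.9.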

Additional observations from a re-analysis of the deposited data

Results flagged for a closer look

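The effect of fenoterol differed between 1 h and 4 h for 7 of the 10 genes by the test of the difference itself (edgeR's quasi-likelihood test, Benjamini-Hochberg adjusted over 12386 genes), where 38.5% of all genes tested differed. The count was 6 or 7 when single libraries were left out. With the mouse as a block it was 8, where 46.6% of all genes differed. Both effects use the same untreated libraries, which cancel in this contrast. On the log2 scale, 4 h minus 1 h was -0.79 for *Ptgs1*, -4.26 for *Ptgs2*, -1.001 for *Tbxas1*, -1.60 for *Hpgds* and -0.79 for *Alox5*, and 0.93 for *Ptges* and 1.67 for *Ptger2*. For *Ptger2* the time points stood on opposite sides of the untreated level (-1.38 and 0.30), although the value at 4 h passed the threshold only with the mouse as a block.

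One library stood apart from the other 3 of its group. At 1 h, *Ptges3* had 227 normalized counts in mouse 1 and 187 to 194 in mice 2 to 4, a gap of 0.836 of the group's range and above Dixon's 95% limit for 4 samples. Of 30 groups of 4 looked at, chance gives about 1.5 such cases.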

How the results depend on the processing

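Over all alternatives, 635 of 657 values of the 10 genes kept their direction and their side of the threshold, 12 changed sign and 10 changed their call only. With the mouse as a replicate block, 5 of the 10 genes passed at 1 h instead of 3 and 8 of the other 45 pathway genes instead of 5, while the calls among all 12386 genes went from 2493 to 3348. The calls gained among the 10 genes are given in the report, and the block changed no other call of these genes. With an adjusted p under 0.01, 2 of the other pathway genes passed at 1 h, and *Ptges* and *Alox5* were not called between the times. Leaving out 1 library gave 3 to 5 other pathway genes at 1 h. The sign of uncalled values turned in some of these fits. Their ranges were -0.19 to 0.0099 for *Ptges3* and -0.12 to 0.061 for *Ptger4* (4 h against 1 h), -0.14 to 0.14 for *Pla2g4a* at 4 h, and -0.076 to 0.026 for *Hpgds* and -0.32 to 0.036 for *Alox5* at 1 h. With no scaling but library size, *Ptger4* between the times was 0.073 and *Tbxas1* at 1 h -0.029, and the median log2 value of all genes between 4 h and 1 h was 0.10. The share of higher genes among all calls was then 32.5% against 49.8% at 1 h and 65.7% against 48.6% between the times. The causes were not tested. The 4 to 6 reads of *Ptgs2* in untreated libraries and the 13 to 94 reads of *Ptges* limit the precision of their changes, and counts near 0 for most other receptors do not show that these receptors are absent.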
